A study of Homo sapiens with 12 samples.

Results

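Sestrins and their functional partners hold back mTORC1, the kinase complex that drives protein synthesis and growth when amino acids and energy are plentiful. The 7 genes described here are negative regulators of that complex, taken by symbol from the 23292 gene symbols listed in each deposited table. They are the sestrins SESN1, SESN2 and SESN3, the stress-induced inhibitor DDIT4 (REDD1), the mTOR-binding inhibitor DEPTOR, and TSC1 and TSC2. All 7 symbols were found. They were selected on their role as brakes of mTORC1, with earlier results of these data on their response to the compounds known, so their levels are given as a description. RNA came from the human cell line HEK293T, derived from embryonic kidney and labelled as wild type (the culture notes write HEK293). The cells received the vehicle DMSO for 6 h, or one of the ATF6-activating compounds AA263, AA263yne and AA263-5 at 10 µM for 6 h. Each of these 4 groups had 3 samples, which gives 12 in all.

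The measurement used was the authors' mean of each gene over all 12 samples, treated and vehicle together, after scaling for library size. It carries neither an SD nor a replicate count, so no difference between genes can be set against a spread between samples, and no value for a single treatment is given. In 3 of the 4 groups the cells were treated with a compound, so ranks and shares of stress-induced genes need not hold in vehicle cells. The means were identical in the 3 tables and summed to 36.6 M. The median over all symbols was 99.7. All 7 genes were above the minimum of 10 that was applied before genes were ranked, which 15638 symbols reached.

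mTORC1 is switched on at the lysosome by the Rag GTPases, which report amino acids, and by RHEB, which reports growth factors and energy. Sestrins act on the amino acid branch. They bind GATOR2, which otherwise restrains GATOR1, the inactivator of the Rag GTPases, and SESN2 lets go of GATOR2 when it binds leucine. DDIT4 and the TSC complex act on the other branch, where TSC2 is the subunit that inactivates RHEB and TSC1 stabilises it. DEPTOR binds the kinase itself, in mTORC1 and in mTORC2. SESN2 and DDIT4 are known as genes induced by cell stress, among others through ATF4, the transcription factor of the integrated stress response.

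Before division by length, the authors' means of the 7 genes ran from 143 to 10205, with SESN2 and TSC2 highest. The authors' mean was 10205 for SESN2, which ranked 527th of all 23292 symbols, and 9669 for TSC2, which ranked 576th. The other genes had authors' means of 1514 for TSC1, 753 for DDIT4, 709 for SESN1, 146 for SESN3 and 143 for DEPTOR. SESN2 and TSC2 together made up 85.9% of the summed means of the 7 genes, which was 633 per M of the total over all symbols. Long transcripts give more reads, so levels of different genes are compared below per kilobase (kb) of transcript, with ratios of the undivided means given only where that is said. The length was taken as all bases annotated as exon of the gene. The length of the MANE Select transcript, the representative transcript on which RefSeq and Ensembl have settled, is given beside it.

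**Figure D1:**
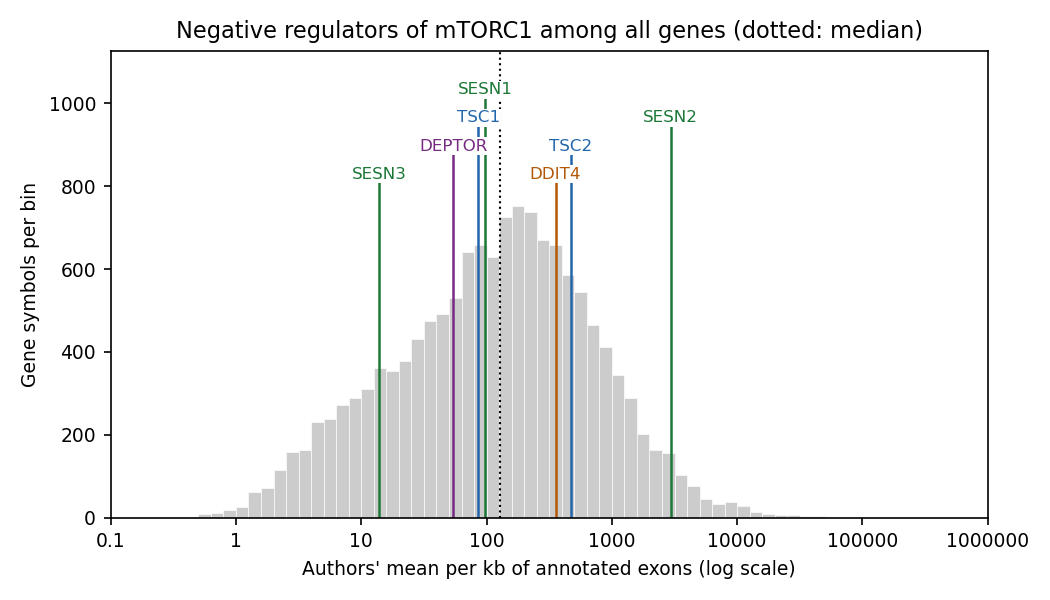
The histogram shows the authors' mean per kb of annotated exons, on a log scale, for the symbols with a mean of at least 10 and a known length, and coloured lines mark the 7 genes. SESN2 lies at 2948 per kb in the upper tail, TSC2 and DDIT4 lie above the dotted median of 129, and SESN1, TSC1, DEPTOR and SESN3 lie below it.

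Among the sestrins, nearly all of the transcript was SESN2. SESN2 lies on chromosome 1 of GRCh38 from 28259518 to 28282491 on the plus strand and has 10 exons in its MANE Select transcript. Its level was 2948 per kb, at percentile 97.1 of the 14007 symbols with a known length and a mean of at least 10. SESN1, a sestrin known as a p53 target, lies on chromosome 6 from 108984309 to 109094846 and had 97.5 per kb, at percentile 44.4. SESN3, known as a target of FOXO factors, lies on chromosome 11 from 95165513 to 95232541 and had 13.8 per kb, at percentile 15.2. SESN2 thus stood near the top of the genes measured, SESN1 near the middle and SESN3 in the lower part. Per kb of annotated exons SESN2 was 30.2 times SESN1 and 213 times SESN3, and SESN1 was 7.05 times SESN3. Per kb of coding sequence these ratios were 16.5, 71.5 and 4.33. Of the summed sestrin level per kb, SESN2 held 96.4%, SESN1 3.19% and SESN3 0.452%. Per kb of coding sequence these shares were 93.1%, 5.64% and 1.30%, so the order was the same with the shorter length.

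The sestrins are paralogs, and their reads could be assigned separately only if their sequences differ enough. The coding sequences of the MANE Select transcripts had 1653 bases in SESN1, 1440 in SESN2 and 1476 in SESN3. Aligned bases were identical at 58.4% of positions between SESN1 and SESN2, at 64.7% between SESN1 and SESN3, and at 58.7% between SESN2 and SESN3. The longest run of identical bases was 12 for SESN1 with either of the others and 20 for SESN2 with SESN3. Over the MANE Select transcripts, 0 windows of 50 bases were shared between any of the 7 genes. The window of 60 coding bases that the sestrins had most in common, among windows within 1 exon of each gene, was the end of the coding sequence in exon 10, where 40 of the 60 bases were the same in all 3 genes. It is shown because even here the genes differ at short intervals. Sequences run 5′ to 3′ on the coding strand, and capitals mark bases that are identical in SESN1 (chr6:108987547-108987606, minus strand), SESN2 (chr1:28280740-28280799, plus strand) and SESN3 (chr11:95173258-95173317, minus strand) of GRCh38.
SESN1: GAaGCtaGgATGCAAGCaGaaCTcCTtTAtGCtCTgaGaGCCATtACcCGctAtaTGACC
SESN2: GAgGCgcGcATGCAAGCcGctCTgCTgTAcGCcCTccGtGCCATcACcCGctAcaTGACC
SESN3: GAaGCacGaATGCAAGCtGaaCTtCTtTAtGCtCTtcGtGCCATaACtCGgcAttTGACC

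Of the stress-induced pair, DDIT4 was well below SESN2. DDIT4, whose protein inhibits mTORC1 through the TSC complex during hypoxia and other stress, lies on chromosome 10 from 72273919 to 72276036 on the plus strand, with 3 exons. It had 356 per kb of annotated exons, at percentile 72.6. The level of SESN2 per kb was 8.29 times that of DDIT4, and between 6.55 and 8.29 times over the 4 definitions of length. Against SESN1, DDIT4 was 3.65 times as high per kb of annotated exons and 2.52 times per kb of coding sequence, but 1.06 times on the undivided means. The MANE Select transcript of DDIT4 has 1744 bases and that of SESN1 has 5664. DDIT4L, the paralog of DDIT4 and likewise an inhibitor of mTORC1, had an authors' mean of 16.2 and a level of 5.41 per kb, the lowest of the mTORC1 pathway genes listed.

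The constitutive brakes were uneven, with more TSC2 than TSC1. TSC2 lies on chromosome 16 from 2047967 to 2089491 on the plus strand and had 471 per kb of annotated exons, at percentile 77.9. TSC1 lies on chromosome 9 from 132891348 to 132946874 on the minus strand and had 86.1 per kb, at percentile 42.0. TSC2 was thus 5.47 times TSC1 per kb of annotated exons, 8.56 times per kb of the MANE Select transcript and 4.11 times per kb of coding sequence. The proteins act as a complex together with TBC1D7, its further subunit, which had 81.0 per kb of annotated exons, just below TSC1, but 525 with the MANE Select length, above it. DEPTOR lies on chromosome 8 from 119873717 to 120050918 on the plus strand and had 54.4 per kb, at percentile 33.3. The level of SESN2 per kb was 54.2 times that of DEPTOR.

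**Figure D2:**
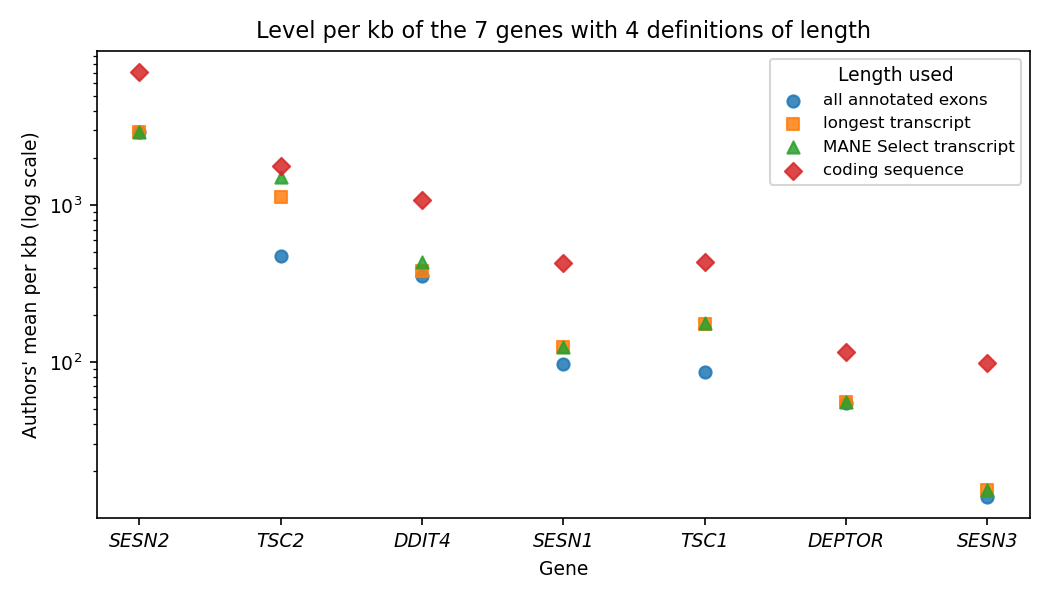
Each gene's authors' mean per kb is plotted on a log scale with 4 definitions of its length, namely all annotated exons, the longest transcript, the MANE Select transcript and the coding sequence. SESN2 is highest and SESN3 lowest with each of them, and TSC2 ranges from 471 to 1784 per kb.

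The level per kb depended on the definition of length, most for SESN3, which ran from 13.8 to 99.1 over the 4 definitions. TSC1 ran from 86.1 to 434, SESN1 from 97.5 to 429 and TSC2 from 471 to 1784. Between annotated exons and the MANE Select transcript, the TSC genes moved most. Annotated exons cover 20527 bases of TSC2, but its MANE Select transcript has 6415 bases, and the matching values for TSC1 are 17600 and 8598. With the MANE Select length the levels per kb were 1507 for TSC2 and 176 for TSC1, and that of SESN2 was 1.96 times that of TSC2 in place of 6.26 times. TSC2 was 1.32 times DDIT4 per kb of annotated exons and 3.49 times per kb of the MANE Select transcript. The order of the 7 genes per kb of annotated exons was SESN2, TSC2, DDIT4, SESN1, TSC1, DEPTOR and SESN3. With each of the other definitions of length, TSC1 stood above SESN1 and the remaining order held. SESN1 and TSC1 differed by at most 1.41 times with any definition of length, so their order is not settled. On the undivided means TSC1 was 2.14 times SESN1. Which values entered the authors' fit is not known for most genes. If they had already been divided by length, the ratios of the means themselves would apply, which were 1.06 for SESN2 to TSC2, 14.4 for SESN2 to SESN1, 69.8 for SESN2 to SESN3, 6.38 for TSC2 to TSC1 and 0.497 for DDIT4 to TSC1. For DDIT4 they were 13.6 for SESN2 to DDIT4 and 12.8 for TSC2 to DDIT4. On that scale DDIT4 would stand below TSC1, and DEPTOR would be lowest, next to SESN3 (ratio 1.02 for SESN3 to DEPTOR).

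For some of these genes, reads of an annotated gene on the opposite strand could have been counted with them. The libraries kept the strand of the RNA, but whether the counting used it is not given in the sources used here. In TSC2, 784 bases of the MANE Select transcript, 12.2% of it, lie over exons of PKD1, the gene for polycystin-1 that runs toward it. Exons of DEPTOR-AS1 cover 9.61% of the DEPTOR transcript, and an unnamed long noncoding RNA covers 4.29% of that of SESN1. For SESN3 and TSC1 the share was 0.816% and 0.616%. For SESN2 and DDIT4 no annotated gene overlapped, and 0 of their 50-base windows were found in transcripts of other genes. The part of such reads in the levels was not tested.

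The other mTORC1 pathway genes listed had a higher median level than the 7 genes described here. That list also holds genes that restrain mTORC1, such as those of GATOR1 and DDIT4L, so it does not set brakes against the rest of the pathway. A list of 49 other genes of the mTORC1 pathway was written by complex, and all 49 were found, 4 of them under an older symbol, with a mean of at least 10. Their median level was 251 per kb of annotated exons, against 97.5 for the 7 negative regulators and 129 for all genes. Of the 49 genes, 33 were above the median of all genes and 16 below it. Of the 7 negative regulators, SESN2, TSC2 and DDIT4 were above that median and 4 below it. With the MANE Select length the medians were 446 for the 49 genes, 176 for the 7 and 225 for all genes that have such a transcript.

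Only EIF4EBP1, the translation repressor 4E-BP1 that mTORC1 phosphorylates, was above SESN2 per kb of annotated exons, with 11219 per kb, the highest of the 5 mTORC1 substrates listed. The lowest substrate was its paralog EIF4EBP2 with 362 per kb, but per kb of coding sequence it was ULK1, with 1009. With the MANE Select length, 6 of the 49 genes were above SESN2. On the undivided means EIF4EBP1, at 9873, was below SESN2, and MLST8, at 12409.5, was the gene above it. Of the core of mTORC1, MLST8, a subunit shared with mTORC2, was highest with 2846 per kb and RPTOR, the scaffold that recruits substrates, lowest with 413 per kb. RHEB, the GTPase that the TSC complex inactivates, had 290 per kb, between TSC1 and TSC2, but per kb of coding sequence it had 1858, above both. The genes of the mTORC2 subunits ran from 31.9 per kb for RICTOR to 593 for MAPKAP1.

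Along the amino acid branch, SESN2 was above each gene of the complexes it signals to per kb of annotated exons. In GATOR2, to which sestrins bind, the 5 genes ran from 150 per kb for MIOS to 1395 for SEC13, which also serves in COPII coats and nuclear pores. In GATOR1 they ran from 46.9 per kb for DEPDC5 to 518 for NPRL3, and in KICSTOR, which holds GATOR1 at the lysosome, from 45.6 for KICS2 to 243 for KPTN. SESN1 lay inside the range of GATOR1 and of KICSTOR and below that of GATOR2. With the MANE Select length SESN1, at 125 per kb, was below DEPDC5 at 128, as it was on the undivided means (709 against 840), and per kb of coding sequence SESN1, at 429, was above MIOS at 383. SESN3 lay below all 3 complexes with each definition of length. The Rag GTPases ran from 90.1 per kb for RRAGD to 1254 for RRAGA, and the Ragulator subunits that anchor them from 236 for LAMTOR3 to 1544 for LAMTOR1. With the MANE Select length, SESN2 was no longer above SEC13 and some of the Ragulator genes, and ITFG2, at 380 per kb, passed KPTN, at 314, as the highest of KICSTOR.

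The other amino acid sensors were low beside SESN2. The lysosomal arginine sensor SLC38A9 had 147 per kb and the cytosolic arginine sensor family member CASTOR2 14.8 per kb, as the highest and lowest of 4 sensor genes. CASTOR2 has near-identical copies in the genome, so its reads may have been split among them. The folliculin complex, which helps to activate the Rag GTPases, ran from 57.9 per kb for FNIP1 to 86.3 for FNIP2, but with the MANE Select length FLCN, at 219, was its highest gene. Subunits of AMPK, the energy-sensing kinase that activates TSC2, ran from 24.8 per kb for PRKAG2 to 483 for PRKAG1, and with the MANE Select length the lowest was PRKAA1, at 94.4. Of the 11 groups with several genes, 8 had the same highest and lowest gene with annotated exons and with the MANE Select length, and 6 had them with all 4 definitions of length.

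**Figure D3:**
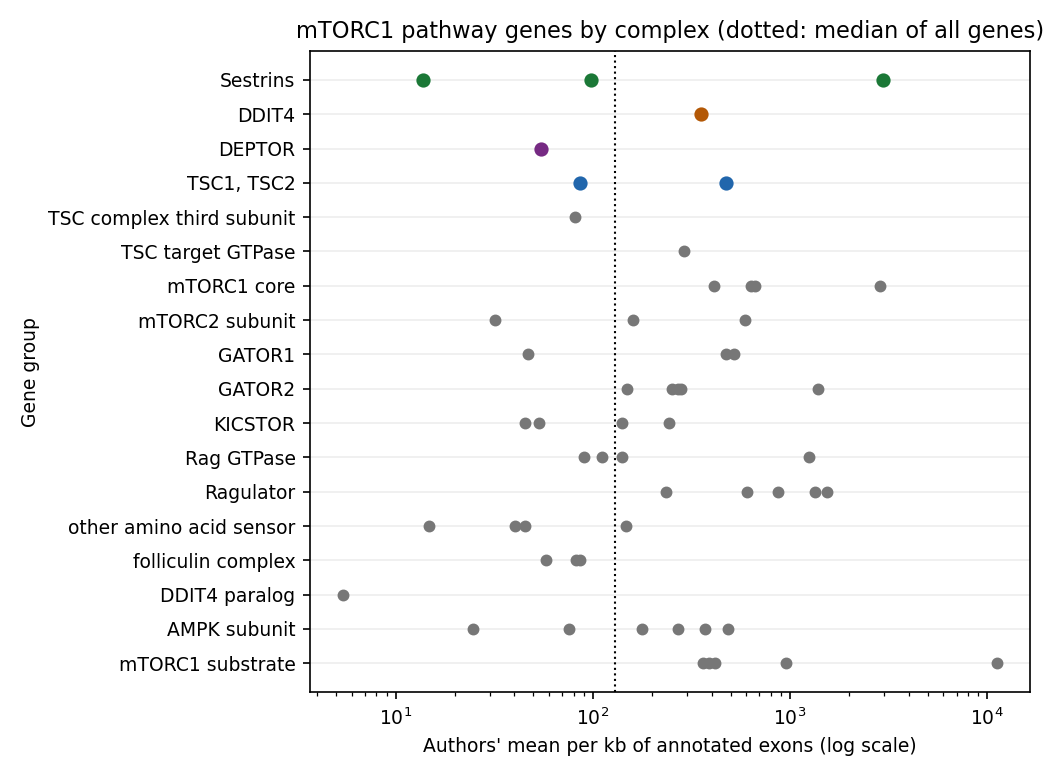
Each point is the authors' mean per kb of annotated exons of a gene, on a log scale, with the 7 negative regulators in colour in the upper rows and the 49 other pathway genes in grey by complex. SESN2 at 2948 per kb is passed on this scale only by EIF4EBP1 at 11219 per kb, and SESN3 at 13.8 per kb has only DDIT4L below it.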

How the data were processed

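RNA of HEK293T cells was sequenced by the authors from 12 samples, grouped by the sample titles. The authors' methods name alignment with DNAstar SeqManPro to GRCh38.p7 and quantification with ArrayStar and QSeq. The submitters' processing notes name DESeq2 1.40.1 and the builds GRCh38 and GRCh37, and the annotation is not given in the sources used here. Each deposited signal is a gene's mean over all samples after division by size factors, by the authors. The remaining columns hold the authors' own comparisons of each compound with DMSO (fold change, its error, test statistic and p-values), and they were not used. The depth of single samples was not analysed here, so neither a counting interval nor a test was computed.

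The authors' methods state that RPKM values entered the fit. Of 2853 symbols with a mean below 1, 141 shared their exact value with another symbol. The most shared values were 0.389 (23 symbols) and 0.467 (11 symbols), at a ratio of 0.833, or 5 to 6, as whole reads would give. Division by each gene's length would have set unrelated symbols apart only if the divided values were not rounded to whole numbers. The ties therefore cannot tell reads from rounded RPKM values. That the means were not yet divided by length was taken as an assumption. The ties concern 141 symbols, all of low value, and which input was used for most genes is not known.

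Gene positions and lengths came from GENCODE 44 on GRCh38, matched by symbol for 89.6% of symbols with a mean of at least 10, older symbols from RefSeq included. The 23 symbols turned into dates or numbers were not used by name. Alignment was made with MAFFT 7.526, and all else with Python 3.11.15 and pandas 2.3.3. The 7 genes and the pathway list were chosen with earlier results of these data known. The text names all 7 genes and, per complex of the list, the genes with the highest and lowest level per kb. A planned comparison of sestrin proteins was replaced by one of coding sequences.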

Additional observations from a re-analysis of the deposited data

How the results depend on the processing

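Results were taken as moved where an alternative changed them by more than 1.5 times, since no replicate spread was at hand. Without division by length, 5 in place of 3 of the 7 genes lay above the median of all genes; SESN1 and TSC1 were the additional ones. The median of the 49 pathway genes was 1008 per kb of coding length in place of 251 per kb of annotated exons, because coding sequences are shorter. Relative to the median of all genes it was 3.83 times without the minimum of 10 in place of 1.95 times, because low genes then enter that median. It was 1.88 times with the coding length, where the median covers only genes with a coding sequence. Of 35 alternatives for the percentiles of single genes, 31 stayed within 1.5 times and 4 did not, for SESN3, DEPTOR and TSC1 without the minimum or without division by length. The MANE Select length was added after the data were seen. No paired analysis was possible because the mean over all samples holds no values of single replicates. For the same reason replicates could not be left out in turn.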
